A study of Mus musculus with 6 samples.

Results

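Splicing regulators of the Srsf, Hnrnp, Rbm, Mbnl and Celf families were examined in left ventricle of mice with and without the mitochondrial pyruvate carrier subunit Mpc2. Members were taken by symbol (Srsf, Rbm, Mbnl or Celf followed by a digit, or Hnrnp), which gave 65 of the 12072 genes in the authors' table. They comprise 10 Srsf, 17 Hnrnp, 34 Rbm, 2 Mbnl and 2 Celf genes. All libraries came from chow-fed animals aged 30 weeks: CS-Mpc2-/- mice, labelled as lacking Mpc2, and fl/fl mice, labelled by their floxed alleles alone. Each group had 6 mice, and RNA of 2 hearts was pooled per library, so there were 3 libraries per group. The labels name no Cre driver, no cells in which it acts, and neither strain nor sex. Values are read coverage of a gene per 1000000 units of its library (ppm), from total RNA depleted of ribosomal RNA.

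SR proteins, encoded by the Srsf genes, bind exonic enhancers and promote exon inclusion, and hnRNPs coat nascent transcripts and often oppose them. Muscleblind-like (Mbnl) and Celf proteins act against each other on the exons that switch between fetal and adult heart. The Rbm symbol covers many unrelated proteins with RNA recognition motifs, among them Rbm20, which represses exons of titin, and Rbm24, which promotes muscle-type exons and stabilises muscle transcripts. In heart muscle the Srsf and Hnrnp genes are general factors, present in all cell types.

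The coverage behind the libraries ranged from 278 to 319 times 1000000 of the smallest steps of the values in CS-Mpc2-/- and from 92.9 to 389 times 1000000 in fl/fl, where replicates 1 and 2 were the shallowest. Mpc2 was at 14.9, 18.2 and 46.3 ppm in CS-Mpc2-/- and at 45.2, 38.9 and 27.7 ppm in fl/fl. The library labelled CS-Mpc2-/- replicate 3 therefore goes against its label in its Mpc2 level, and it is kept in the CS-Mpc2-/- group in every direction given below. Across all genes fl/fl replicate 3 correlated more closely with the CS-Mpc2-/- libraries (Pearson's r of 0.97 to 0.98 over log2 values of genes, which are not independent) than with the other fl/fl libraries (0.94 each). The library labelled CS-Mpc2-/- replicate 3 correlated at 0.96 with both other CS-Mpc2-/- libraries and at 0.92 and 0.93 with fl/fl replicates 1 and 2. The 11 cardiomyocyte markers, all measured and above 0, summed to 141103 to 154034 ppm in CS-Mpc2-/- and 150884 to 188577 in fl/fl. The 10 fibroblast markers, all measured, summed to 3008 to 6299 ppm in CS-Mpc2-/- and 2304 to 2895 in fl/fl, and 8 of 10 macrophage markers to 469 to 623 ppm in CS-Mpc2-/- and 367 to 449 in fl/fl, with Adgre1 and Cd68 not listed in the table. Endothelial markers (9 of 9) summed to 1798 to 1932 ppm in CS-Mpc2-/- and 1654 to 1866 in fl/fl, and mural cell markers (9 of 9) to 1106 to 1221 in CS-Mpc2-/- and 1276 to 1671 in fl/fl. Blood markers (4 of 9) summed to 439.8 to 867 ppm in CS-Mpc2-/- and 519.7 to 780.1 in fl/fl. Of 5 atrial markers Nppa alone was listed, at 7834, 10961 and 6696 ppm in CS-Mpc2-/- and 197, 175 and 7656 ppm in fl/fl. In fl/fl only replicate 3 thus lay within the range of the CS-Mpc2-/- libraries. The part of these differences in the results was not tested.

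Among the 65 members, the cardiac regulators Rbm24 and Rbm20 had the highest coverage per transcript length. Rbm24 had 85.1 ppm per kb of its longest coding transcript in CS-Mpc2-/- and 106 in fl/fl, and Rbm20 had 78.4 in CS-Mpc2-/- and 103 in fl/fl; their mean levels were above 95.7% and 95.5% of the 11994 genes with a transcript length. The next member was Hnrnpab, a nuclear RNA-binding protein of the A/B class, with 47.5 and 43.8 ppm per kb in CS-Mpc2-/- and fl/fl. Within the other families the highest members were Srsf5, an SR protein of the general set, at 26.5 ppm per kb in CS-Mpc2-/- and 27.2 in fl/fl, Mbnl2 at 29.9 in CS-Mpc2-/- and 32.2 in fl/fl, and Celf1 at 13.5 in CS-Mpc2-/- and 14.6 in fl/fl. Mbnl1 stood at 23.5 ppm per kb in CS-Mpc2-/- and 24.1 in fl/fl. At the low end Rbm47, which in mammals assists cytidine deamination of mRNA, had 0.438 ppm per kb in CS-Mpc2-/- and 0.514 in fl/fl. Hnrnpa1, like Rbm47 named after its values were seen, had 1.38 in CS-Mpc2-/- and 2.05 in fl/fl, and 9 other loci, all annotated pseudogenes, hold a transcript that matches its own at 95% identity or more over at least 200 bases. Its level is uncertain, since reads from any of these loci may be placed on another, and 18 of the 65 members have at least 1 such locus elsewhere in the genome. Exons of 21 members overlap an antisense gene. No strand setting is given, so whether the values keep coverage of the 2 strands apart is unknown.

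**Figure D1:**
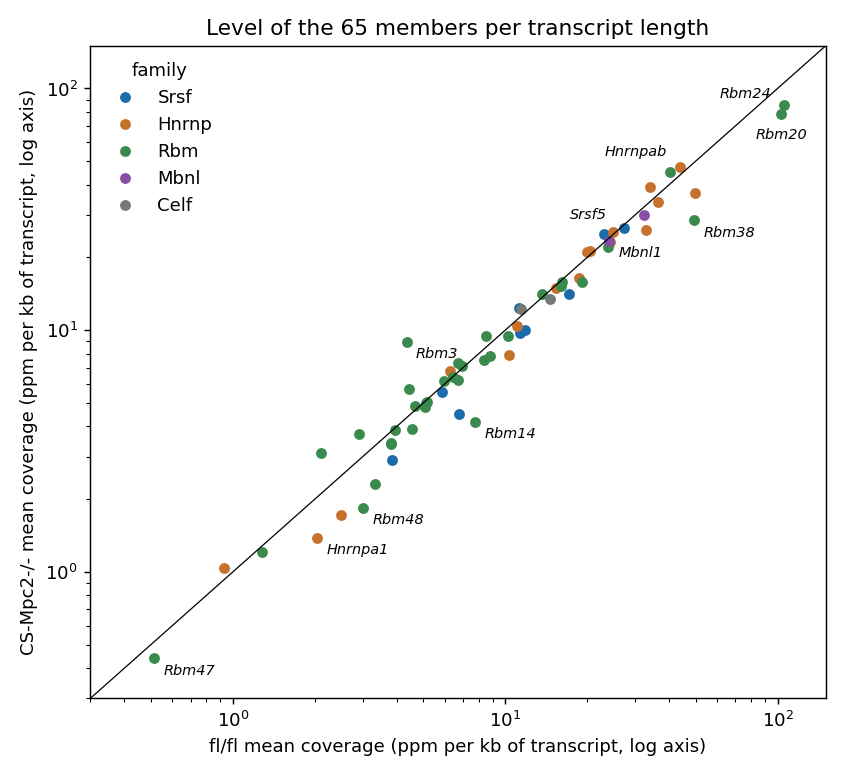
Mean coverage of each of the 65 members per kb of its longest coding transcript, fl/fl on the x axis and CS-Mpc2-/- on the y axis, both logarithmic; colours mark the 5 families and the line marks equal values. Rbm24 and Rbm20 lie apart at the top, and Rbm38, Rbm14 and Rbm48 lie below the line while Rbm3 lies above it.

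With all 6 libraries, 0 members were called higher and 0 lower in CS-Mpc2-/- by limma at a Benjamini-Hochberg adjusted p under 0.05, and over all genes 0.0% were called. The smallest adjusted p among members was 0.239. At an unadjusted p under 0.05 there were 4 members, 1 higher (Rbm3) and 3 lower (Rbm38, Rbm14 and Rbm20), or 6.15% of 65, while 13.5% of all genes passed. By direction the shares of all genes were 8.08% higher and 5.43% lower. The higher count was 0 without CS-Mpc2-/- replicate 2 and also without fl/fl replicate 1. The lower count was 1 when fl/fl replicate 2 was left out and 9 when fl/fl replicate 3 was. In the fits with a library left out the share of all genes at this p was not counted. Without fl/fl replicate 3, 10.9% of all genes passed even the adjusted threshold, so the 9 are not read as a result about the members. The CS-Mpc2-/- values lay wholly below the fl/fl values for 7 members (10.8%, against 6.48% of all genes) and wholly above them for 1 (1.54%, against 8.01%). Those below were Rbm38, Rbm14, Rbm20, Rbm24, Rbm48, Rbm5 and Srsf11, and the one above was Rbm45, an RNA-binding protein first described in developing neurons. Most members differed little: 46 of 65 (70.8%) had a log2 difference within 0.25 of 0, and 51.0% of all genes did. The median log2 difference was -0.08 over the members and 0.04 over all genes, with 22 members positive and 43 negative. For 52 members the 95% interval of the difference lay within 1 log2 unit of 0, so a 2-fold difference lies outside it, and for the other 13 it does not.

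**Figure D2:**
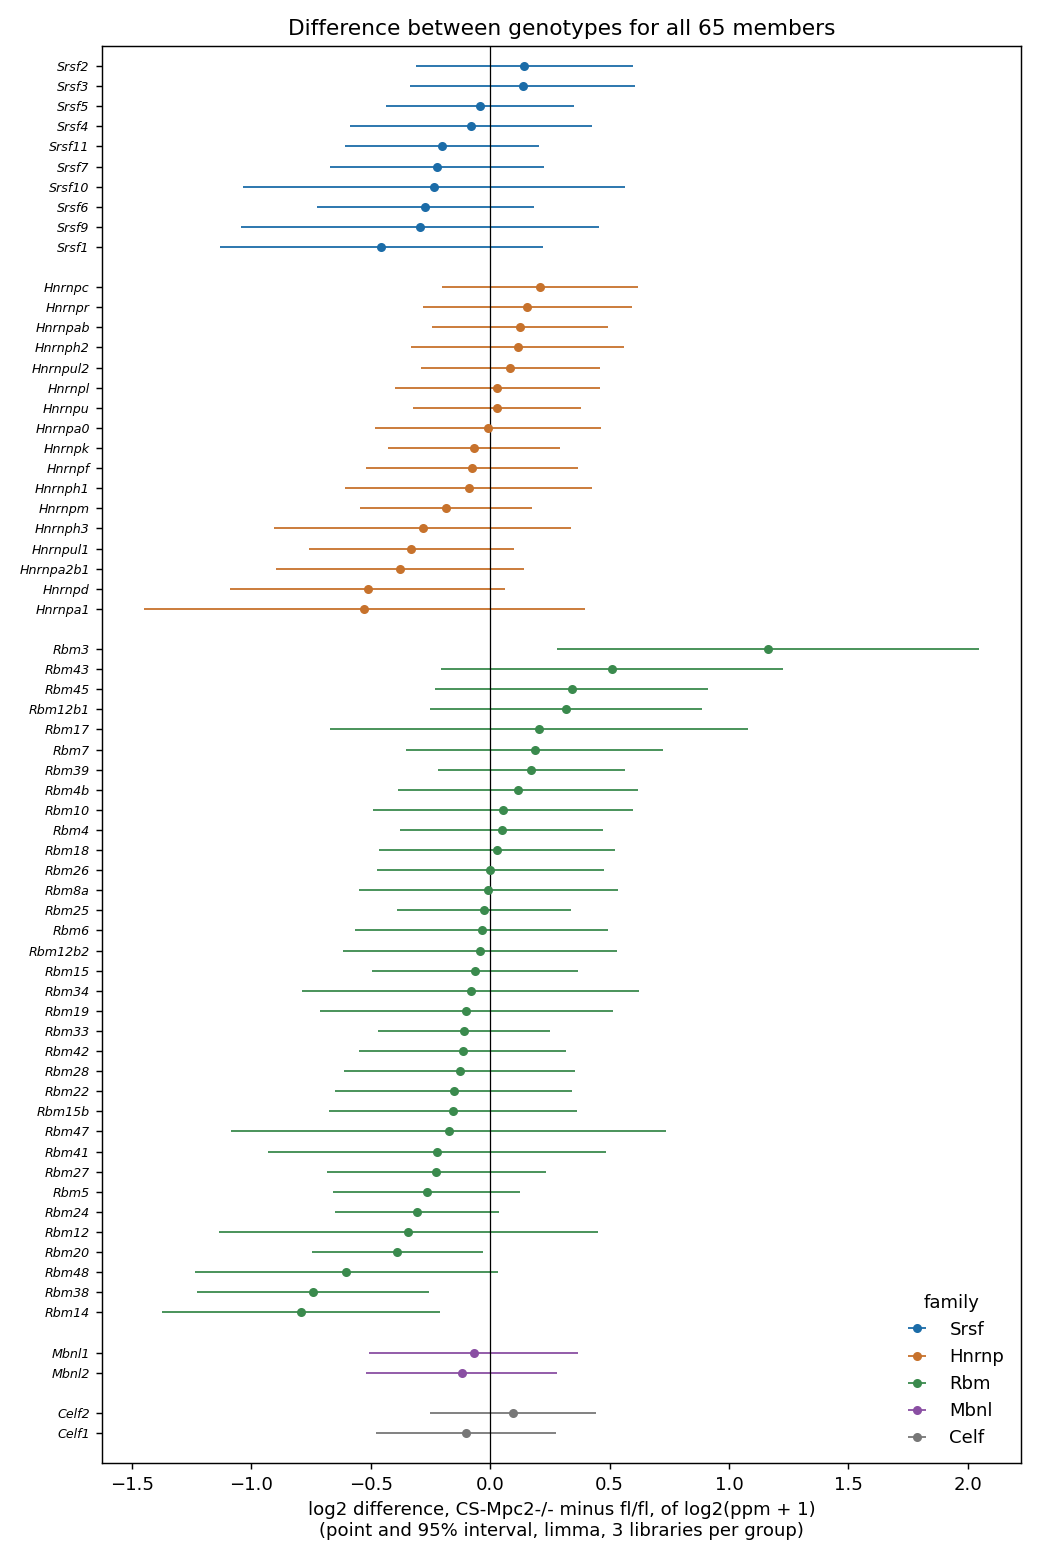
Log2 difference (CS-Mpc2-/- minus fl/fl) with its 95% interval from limma for each of the 65 members, grouped by family and ordered by size within it. Intervals of 4 members, Rbm3 above 0 and Rbm20, Rbm38 and Rbm14 below 0, exclude 0, and none of these differences passed the adjustment over all genes.

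Rbm20 lies on chromosome 19 from 53677306 to 53867080 (mm10, plus strand), and its longest coding transcript has 14 exons. It had 386, 415 and 349.6 ppm in CS-Mpc2-/- replicates 1, 2 and 3, against 541, 532 and 439 ppm in fl/fl. Every CS-Mpc2-/- value was below every fl/fl value, and fl/fl replicate 3 was the lowest of its group. The means were 384 ± 32.7 and 504 ± 56.2 ppm in CS-Mpc2-/- and fl/fl (SD, n = 3 each), so CS-Mpc2-/- stood at 76.1% of fl/fl. The log2 difference was -0.39 ± 0.16 (SE; limma adjusted p = 0.339). An exact permutation test, two-sided, gave 0.1, the smallest p that 3 against 3 allows. With fl/fl replicate 3 left out it was -0.49 (adjusted p = 0.0676, and 0.0676 to 0.793 over all alternatives), and with replicate 3 of both groups left out -0.42.

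Rbm24 lies on chromosome 13 from 46418434 to 46431095 on the plus strand, with 4 exons. It had 262, 270.2 and 256 ppm in CS-Mpc2-/-, against 328, 363 and 289 ppm in fl/fl. The groups did not overlap, and the CS-Mpc2-/- libraries lay close together. The means were 263 ± 7.23 ppm in CS-Mpc2-/- and 326 ± 37.2 ppm in fl/fl (SD, n = 3 each), the log2 difference was -0.31 ± 0.16 (SE), and the limma adjusted p was 0.424 (exact permutation p = 0.1, the smallest possible). Without fl/fl replicate 3 it was -0.39 and without replicate 3 of both groups -0.37, with adjusted p of 0.131 and 0.115 (0.115 to 0.816 over all alternatives).

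Mbnl1, on chromosome 3 from 60472830 to 60629750, encodes the main Mbnl protein of adult heart. It had 112, 111 and 175 ppm in CS-Mpc2-/-, against 129, 154 and 127 ppm in fl/fl. The library labelled CS-Mpc2-/- replicate 3 was the highest of all 6 and the other CS-Mpc2-/- libraries the lowest. The log2 difference was -0.07 ± 0.20 (SE) with a limma adjusted p of 0.907 and a 95% interval of -0.51 to 0.37; without replicate 3 of both groups it was -0.34. Mbnl2, its close relative, was also highest in that library, at 112, 129.96 and 167 ppm in CS-Mpc2-/-, against 152, 158 and 130.01 ppm in fl/fl. Celf1 and Celf2 overlapped between groups, at 118, 98.3 and 102 ppm for Celf1 in CS-Mpc2-/- against 132, 98.7 and 112 in fl/fl, and at 104, 100.1 and 121 ppm for Celf2 in CS-Mpc2-/- against 102, 100.4 and 101.4 in fl/fl. Their log2 differences were -0.10 ± 0.17 and 0.10 ± 0.16 (SE), with limma adjusted p of 0.829 and 0.823.

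Set against general factors, the 3 cardiac regulators had a mean log2 difference of -0.26, and the general factors one of -0.12. The mean log2(ppm + 1) of Rbm20, Rbm24 and Mbnl1 was 7.82, 7.86 and 7.97 in CS-Mpc2-/- and 8.16, 8.28 and 7.99 in fl/fl. That of the 27 Srsf and Hnrnp genes was 5.18, 5.12 and 5.24 in CS-Mpc2-/- and 5.39, 5.28 and 5.24 in fl/fl. Cardiac minus general was 2.70 ± 0.06 in CS-Mpc2-/- and 2.84 ± 0.14 in fl/fl (SD, n = 3 each), a difference of -0.14. It is smaller than the SD of the fl/fl libraries and larger than that of the CS-Mpc2-/- libraries and than the pooled SD of 0.11. With 1 library left out it was -0.18 at one end, lacking fl/fl replicate 3, and -0.05 at the other, lacking fl/fl replicate 2, and no test was run on it. The 3 regulators summed to 760, 796 and 781 ppm in CS-Mpc2-/- and to 998, 1048 and 855 ppm in fl/fl. The 27 general factors summed to 1391 ± 72.3 ppm in CS-Mpc2-/- and 1462 ± 107 ppm in fl/fl.

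**Figure D3:**
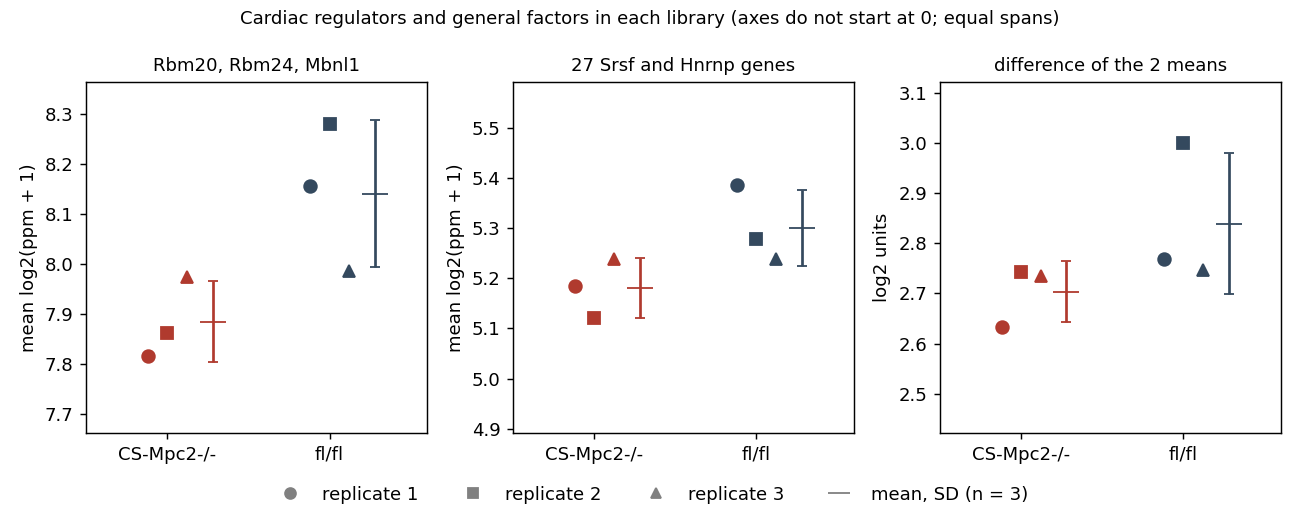
Mean log2(ppm + 1) of Rbm20, Rbm24 and Mbnl1 (left), of 27 Srsf and Hnrnp genes (middle) and their difference (right) in each library, with mean and SD (n = 3), CS-Mpc2-/- left of fl/fl. The cardiac mean is 7.82 to 7.97 in CS-Mpc2-/- and 7.99 to 8.28 in fl/fl. The difference does not overlap between the groups by a narrow margin, its highest CS-Mpc2-/- value being 2.743 and its lowest fl/fl value 2.746.

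Cardiomyocyte markers were mostly lower in CS-Mpc2-/-, as Rbm20 and Rbm24 were: 9 of 11 log2 differences were negative and 2 positive, with 0 called, and 4 lower and 1 higher at an unadjusted p under 0.05. Of all genes 5.43% were lower and 8.08% higher at that p in limma. Within CS-Mpc2-/- the marker mean was highest in replicate 3 (12.49, against 12.21 and 12.36 in replicates 1 and 2), where Rbm20 and Rbm24 were lowest. In fl/fl it was 12.74, 12.74 and 12.47 in replicates 1, 2 and 3. The value of fl/fl replicate 3 thus lay just below that of CS-Mpc2-/- replicate 3. The group mean log2 value of the 11 markers was 12.36 ± 0.14 in CS-Mpc2-/- and 12.65 ± 0.16 in fl/fl (SD, n = 3 each), a difference of -0.29. Relative to that mean, a measure chosen after seeing the data, Rbm20 stood at -3.77 ± 0.23 in CS-Mpc2-/- and -3.68 ± 0.01 in fl/fl, and Rbm24 at -4.31 ± 0.16 in CS-Mpc2-/- and -4.30 ± 0.08 in fl/fl, differences of -0.10 and -0.01. Mbnl1 stood at -5.33 ± 0.27 in CS-Mpc2-/- and -5.55 ± 0.14 in fl/fl on the same measure, and Rbm38 at -6.45 ± 0.21 in CS-Mpc2-/- and -6.00 ± 0.32 in fl/fl. In such bulk samples fewer cells of a type and less RNA per cell cannot be told apart, and the part of cell composition in these values was not tested.

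Rbm38, the closest relative of Rbm24 and in human cells a p53 target that binds the p21 transcript, had the smallest p-value of all members. It had 59.9, 62.0 and 54.9 ppm in CS-Mpc2-/-, against 109.8, 129 and 68.5 ppm in fl/fl. The groups did not overlap, and fl/fl replicate 3 lay nearer the CS-Mpc2-/- values than the other fl/fl libraries did. CS-Mpc2-/- stood at 57.5% of fl/fl, with a log2 difference of -0.74 ± 0.22 (SE) and a limma adjusted p of 0.239 (exact permutation p = 0.1, the smallest possible). Without fl/fl replicate 3 Rbm38 fell by 1.005 on the log2 scale and passed the test over all genes (adjusted p = 0.00331, and 0.00264 to 0.769 over all alternatives). Rbm38 lies on chromosome 2 from 173020498 to 173034734, and its exons overlap 2 antisense genes, Gm14453 and Gm20490. The longest alignment of the Rbm24 and Rbm38 transcripts spans 404 bases at 79.0% identity, and neither matches the other at the 95% level.

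The promoters of this paralog pair are shown because both genes were lower in CS-Mpc2-/- libraries. Sequences are RefSeq's on GRCm38.p6 and run from 250 bases before to 50 bases after the annotated start, for Rbm24 at chr13:46418050-46418349 and for Rbm38 at chr2:173021652-173021951, both on the plus strand. RefSeq's starts differ from the GENCODE gene starts given above: the Rbm24 window lies wholly before the GENCODE start and the Rbm38 window wholly inside the GENCODE gene. Capitals mark E-box letters (CANNTG, the same on both strands).
Rbm24: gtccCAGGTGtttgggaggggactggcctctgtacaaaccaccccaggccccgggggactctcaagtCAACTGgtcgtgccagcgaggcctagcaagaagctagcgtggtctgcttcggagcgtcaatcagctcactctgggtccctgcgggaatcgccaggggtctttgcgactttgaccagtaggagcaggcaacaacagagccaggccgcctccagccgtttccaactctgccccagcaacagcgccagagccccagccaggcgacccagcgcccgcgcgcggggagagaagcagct
Rbm38: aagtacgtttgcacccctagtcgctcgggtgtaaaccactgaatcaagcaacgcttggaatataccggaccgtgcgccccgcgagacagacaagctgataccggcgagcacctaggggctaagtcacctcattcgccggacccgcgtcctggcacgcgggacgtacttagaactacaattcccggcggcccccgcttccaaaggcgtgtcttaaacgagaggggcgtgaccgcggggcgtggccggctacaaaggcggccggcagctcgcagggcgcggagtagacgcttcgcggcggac
The Rbm24 window holds 2 such letter matches and the Rbm38 window 0, and 72.3% of 32851 mouse promoters of this length hold at least 1. Searched on both strands, the letters CATTCC (held by 14.7% of promoters), the letters CCAAT (37.4%), the letters TATAAA (13.6%), the letters GGGCGG (35.7%), the MEF2 motif (3.19%) and the CArG motif (1.63%) have 0 matches in either window. GC content was 64.7% for Rbm24 and 63.7% for Rbm38, with a median of 52.7% over all promoters. Of the 65 members, 57 have a promoter in that table.

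Rbm14, a coactivator that is also a component of paraspeckles, had 14.9, 16.2 and 13.0 ppm in CS-Mpc2-/-, against 27.3, 36.9 and 17.5 ppm in fl/fl. The groups did not overlap, and fl/fl replicate 3 was again the lowest fl/fl library. The log2 difference was -0.79 ± 0.27 (SE), the largest negative one among members, with a limma adjusted p of 0.269. Without fl/fl replicate 3 the log2 difference was -1.07 and passed (limma adjusted p = 0.0150, and 0.0150 to 0.769 over all alternatives). Rbm14 lies on chromosome 19 from 4800569 to 4811634, where its exons overlap Gm21992 on the same strand and Gm21844 on the other.

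Rbm3, a cold-inducible protein that favours translation, was the member with the largest positive difference. It had 26.99, 30.5 and 17.5 ppm in CS-Mpc2-/-, against 4.99, 9.61 and 21.8 ppm in fl/fl. The library labelled CS-Mpc2-/- replicate 3 lay below fl/fl replicate 3, so the groups overlapped. The log2 difference was 1.16 ± 0.41 (SE) with a limma adjusted p of 0.278. With 1 library left out the difference lay between 0.70, with fl/fl replicate 1 left out, and 1.67. The difference was 1.67 without fl/fl replicate 3 and 1.90 without replicate 3 of both groups, passing in each (limma adjusted p = 0.00510 and 0.00179, with 0.00179 to 0.769 over all alternatives). Cirbp, the other cold-inducible RNA-binding protein, named after its values were seen, had 13.0, 34.8 and 20.1 ppm in CS-Mpc2-/- and 27.5, 25.9 and 24.7 ppm in fl/fl. Rbm3 is on chromosome X from 8138975 to 8145880, its exons overlap the antisense gene Rbm3os, and 5 other loci hold a near-identical transcript, so its level is uncertain.

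**Figure D4:**
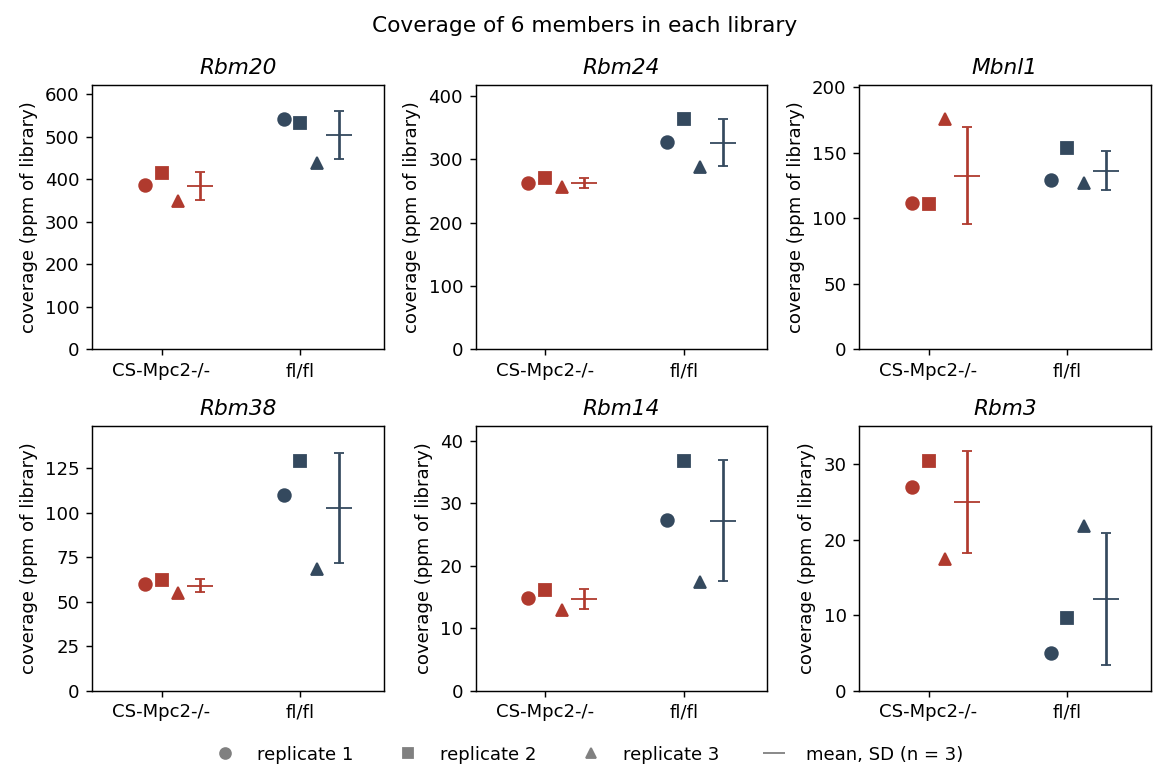
Coverage in ppm of 6 members in each library, CS-Mpc2-/- left of fl/fl, with replicate numbers as symbols and mean with SD (n = 3) beside them; all axes start at 0. Rbm20, Rbm24, Rbm38 and Rbm14 do not overlap between groups, with fl/fl replicate 3 lowest in fl/fl, while Mbnl1 and Rbm3 overlap.

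Leaving out fl/fl replicate 3 gave 1 member higher (Rbm3, where 6.51% of all genes were called higher) and 2 lower (Rbm38 and Rbm14, where 4.4% were called lower), or 4.62% of members against 10.9% of all genes. Leaving out replicate 3 of both groups gave the same member higher (7.24% of all genes) and 3 lower (5.3% of all genes), with Hnrnpa2b1 added, or 6.15% of members against 12.5% of all genes; Hnrnpa2b1 then fell by 0.72 on the log2 scale, against a difference of -0.38 with all 6 libraries (adjusted p = 0.0344, and 0.0344 to 0.914 over all alternatives). All other members missed the threshold in both fits. Array weights, which lower the weight of discordant libraries, gave 1 higher (Rbm3, with 2.66% of all genes) and 1 lower (Rbm38, with 1.84%), where 4.5% of all genes were called in either direction. For 49 of 65 members (75.4%) fl/fl replicate 3 was nearer the CS-Mpc2-/- mean than the mean of fl/fl replicates 1 and 2, as it was for 72.0% of all genes. The shallow library fl/fl replicate 1 had the highest value of the 6 for 21 members (32.3%), and for 19.0% of all genes. Summed over the members, coverage was 3476, 3341 and 3542 ppm in CS-Mpc2-/- and 4044, 3830 and 3508 ppm in fl/fl. The mean of these sums differed by -341 ppm, and that of Rbm20, Rbm24 and Mbnl1 together by -188 ppm.

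Most other Rbm genes had small differences, and those named from here to the end of the paragraph were chosen after their values were seen. Rbm48, a factor of the minor spliceosome, had 4.37, 4.98 and 3.76 ppm in CS-Mpc2-/-, against 7.48, 7.26 and 6.64 ppm in fl/fl. Its groups did not overlap, and fl/fl replicate 3 lay with the other fl/fl libraries. The log2 difference was -0.60 ± 0.29 (SE, limma adjusted p = 0.393). In the authors' deposited table Rbm48 has the ratio 0.613 and an unadjusted p of 0.00310, while Rbm20 has 0.761 and 0.0326 and Rbm24 0.804 and 0.0431. The authors' unadjusted p is larger for Rbm38 (0.0730), Rbm14 (0.0913) and Rbm3 (0.114), which had the smallest p-values of the members in limma. The share of all genes at a given authors' p was not counted, so these values are not read as a result about the members. Rbm5 and Rbm10, related splicing factors that act on exons of apoptosis genes, had log2 differences of -0.27 ± 0.18 and 0.06 ± 0.25 (SE). Rbm39 and Rbm25, abundant general factors, had 0.17 ± 0.18 and -0.03 ± 0.17. Rbm8a, the exon junction subunit also called Y14, had -0.01 ± 0.25, and Rbm15, an adaptor of RNA methylation, had -0.06 ± 0.20. Over the 32 Rbm genes without Rbm20 and Rbm24 the median was -0.05.

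Among SR protein genes 8 of 10 log2 differences were negative, with a median of -0.21, a range of -0.46 to 0.14, and 0 at an unadjusted p under 0.05. Srsf1, the archetypal SR protein, which controls Camk2d exons in mouse heart, had 24.7, 27.2 and 20.2 ppm in CS-Mpc2-/-, against 59.6, 26.9 and 22.5 ppm in fl/fl. The single high value was that of fl/fl replicate 1, and without it the log2 difference was -0.04, against -0.46 ± 0.31 (SE) with all libraries (limma adjusted p = 0.537). Srsf6 had 41.2, 51.1 and 56.8 ppm in CS-Mpc2-/- and 66.4, 69.0 and 46.3 ppm in fl/fl, with overlap and a difference of -0.27 ± 0.21. Srsf11, which binds near splice sites, had 30.6, 31.7 and 28.8 ppm in CS-Mpc2-/-, against 33.6, 39.7 and 32.3 ppm in fl/fl, without overlap and with a small difference of -0.20 ± 0.19. With 1 library left out the differences ranged from -0.45 to -0.14 for Srsf6 and from -0.26 to -0.11 for Srsf11. Srsf5 had 38.3, 46.8 and 39.3 ppm in CS-Mpc2-/- and 44.6, 44.4 and 39.0 ppm in fl/fl. Summed Srsf coverage was 284 ± 29.1 ppm in CS-Mpc2-/- and 313 ± 18.5 ppm in fl/fl (SD, n = 3 each).

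The Hnrnp genes were spread on both sides of 0, with 7 positive and 10 negative, a median of -0.07 and a range of -0.53 to 0.21, and 0 at an unadjusted p under 0.05. The groups separated in 0 of the 17, where 8.01% of all genes lay wholly above and 6.48% wholly below. Hnrnpd, which binds AU-rich elements and is known as AUF1, had 11.2, 9.04 and 14.8 ppm in CS-Mpc2-/-, against 21.7, 15.2 and 14.3 ppm in fl/fl (log2 difference -0.51 ± 0.26 SE, limma adjusted p = 0.424). Hnrnpul1, a nuclear hnRNP related to hnRNP U, had 92.9, 117 and 84.9 ppm in CS-Mpc2-/- and 149.7, 125 and 99.1 ppm in fl/fl. Hnrnpa2b1, which sorts and splices transcripts, had 65.8, 52.4 and 73.8 ppm in CS-Mpc2-/- and 116, 82.0 and 59.2 ppm in fl/fl. In both of these fl/fl replicate 1 was the highest library. The log2 difference of Hnrnpa2b1 was -0.38 ± 0.24 (SE, limma adjusted p = 0.504) with all libraries and -0.13 without fl/fl replicate 1. Hnrnpab had 112, 112 and 114 ppm in CS-Mpc2-/-, against 98.8, 90.2 and 123 ppm in fl/fl. Hnrnpu, a scaffold of nuclear RNA with a log2 difference of 0.03 ± 0.16 (SE, 95% interval -0.32 to 0.38), and Hnrnpk, at -0.07 ± 0.17, were named after their values were seen. Summed Hnrnp coverage was 1107 ± 65.1 ppm in CS-Mpc2-/- and 1149 ± 103 ppm in fl/fl.

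Around these families, other splicing genes were counted from lists, with 0 genes called with all 6 libraries; the shares of all genes at an unadjusted p under 0.05, for the counts below, were 8.08% higher and 5.43% lower. Of 43 regulators outside the families 38 were measured, with a median log2 difference of 0.00, and 1 higher and 2 lower at an unadjusted p under 0.05. Rbfox1, which controls muscle and heart exons, had 4.999, 5.30 and 10.7 ppm in CS-Mpc2-/-, against 37.5, 35.6 and 12.3 ppm in fl/fl. Its log2 difference of -1.80 ± 0.40 (SE, limma adjusted p = 0.220) exceeded that of every family member in size, and the groups did not overlap, although replicate 3 of each group lay near the other. Fmr1, which encodes the fragile X protein, had 21.2, 17.9 and 23.9 ppm in CS-Mpc2-/- and 9.11, 9.87 and 18.7 ppm in fl/fl (0.76 ± 0.28). Of 20 SR protein kinases and partners 19 were measured, with a median of -0.09, and 0 higher and 1 lower at that p. That gene was Srpk3, the muscle-specific SR protein kinase, with 21.03, 16.5 and 25.9 ppm in CS-Mpc2-/-, against 33.8, 42.0 and 26.9 ppm in fl/fl (-0.67 ± 0.24). Srrm1, a splicing coactivator, had a difference of -0.51 ± 0.24. With fl/fl replicate 3 left out, calls by adjusted p (6.51% of all genes higher and 4.4% lower) numbered 1 higher and 3 lower among the 38 regulators, and 0 of the 19 kinases and partners higher and 2 lower. Rbfox1, Fmr1 and Srpk3 were among these, with limma adjusted p of 0.000507, 0.0194 and 0.0454 there (up to 0.769 over all alternatives).

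The core spliceosome list had 46 of 48 genes measured, a median of -0.12, and 0 higher and 0 lower at an unadjusted p under 0.05. Its smallest p-values belonged to the Sm protein gene Snrpg (0.86 ± 0.41) and the U1 protein gene Snrpa (-0.55 ± 0.27), log2 differences with SE. Exon junction and nonsense-mediated decay factors had 16 of 18 measured, a median of -0.01, and 0 higher and 1 lower, with Acin1 at -0.52 ± 0.19 and Casc3 at -0.54 ± 0.25. Transcripts whose splicing Rbm20 is known to control were all measured, 19 of 19, with a median of -0.09, and 3 higher and 3 lower. Rtn4, a reticulon, was at 322, 345 and 339 ppm in CS-Mpc2-/-, against 79.3, 88.8 and 307 ppm in fl/fl, and Enah, an actin regulator, at 147, 208 and 163 ppm in CS-Mpc2-/-, against 69.9, 62.4 and 130.4 ppm in fl/fl. Titin (Ttn) itself had 70671, 72847 and 85216 ppm in CS-Mpc2-/-, against 76117, 81765 and 81533 ppm in fl/fl, with a log2 difference of -0.07 ± 0.38 (SE). The trend setting of limma draws this SE toward that of genes at a similar level, and the library values themselves lie closer together than it implies. Titin was named after its values were seen. These are levels of whole genes, and exon use, on which Rbm20 acts, was not measured. With fl/fl replicate 3 left out, calls by adjusted p, against the same 6.51% and 4.4% of all genes, numbered 0 higher and 0 lower in the core list, 0 and 1 among exon junction and decay factors, and 3 and 3 among the Rbm20 targets.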

How the data were processed

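The deposited table gives a coverage signal for each gene in each library, brought by the authors to near-equal totals, as the values show. In each library at least 99.9917% of values divided by the smallest gave a whole number (tolerance 0.01), and the next value was 21 to 47 steps, so read counts were not recovered. It also holds the authors' ratio of group means and an unadjusted p-value. Per the submitters' processing notes the build was mm10; no aligner, counting rule or strand setting is given in the sources. Per the labels' protocols, about 25 mg of ventricle was used and libraries were read on an Ion Torrent Proton. Each value was divided by its library total (ppm), and log2(ppm + 1) was compared by limma 3.58.1 (R 4.3.3, eBayes with trend, group as the only term, two-sided) over all 12072 genes with Benjamini-Hochberg adjustment; the filter of a mean of at least 1 ppm removed 0 genes. The fold change of a low gene is understated by the pseudocount. Single genes were also compared by an exact permutation test (20 arrangements). Positions and transcript lengths are from GENCODE M21, which matched all 65 members; near-identical copies were sought with BLAST 2.17.0. Fits were tested on simulated data. Each library pools separate animals. Members and lists were chosen with earlier results of these data known. Named genes were Rbm20, Rbm24 and Mbnl1, the 3 members of each large family with the smallest unadjusted p, all Mbnl and Celf genes, the highest per length in each family, members called without fl/fl replicate 3, and 2 genes per other list by smallest p. Alternatives were other scalings, limma settings, pseudocounts of 0.1 and 5 ppm, a mean of at least 5 ppm or no filter, the replicate number as a block, libraries left out and array weights; taking out the trend with transcript length was added after seeing the data.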

Additional observations from a re-analysis of the deposited data

How the results depend on the processing

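With array weights 1 member was called higher (Rbm3, 2.66% of all genes) and 1 lower (Rbm38, 1.84%), and 6 were lower at an unadjusted p under 0.05. With replicate 3 of both groups left out 1 was called higher (7.24% of all genes) and 3 lower (5.3%), and 11 were lower at that p. For array weights and the fits with libraries left out, the share of all genes at that p was not counted. The counts at that p in these fits are therefore not read as a result about the members. With 1 library left out 0 to 1 were called higher, 0 to 2 were called lower, 0 to 1 were higher and 1 to 9 were lower at that p; calls came only without fl/fl replicate 3. Scalings, pseudocounts, filters, the trend, robust estimation and removal of the length trend made 0 calls. The sign turned for Mbnl1 without CS-Mpc2-/- replicate 1, CS-Mpc2-/- replicate 2 or fl/fl replicate 2 (0.036, 0.042 and 0.017), for Mbnl2 and Srsf5 without CS-Mpc2-/- replicate 1, and for Celf1 without fl/fl replicate 1; the cause was not tested. With 1 library left out the log2 difference was -0.29 to 0.042 for Mbnl1, -0.28 to 0.010 for Mbnl2, -0.13 to 0.010 for Srsf5 and -0.20 to 0.0084 for Celf1. The other named members kept their sign in all 19 alternatives, among them Rbm20 (-0.49 to -0.33) and Rbm24 (-0.39 to -0.23). The median member difference and the cardiac difference moved by less than the library spread. Deviations of each gene from its group mean correlated at 0.07, -0.04 and -0.07 between same-numbered libraries. Differently numbered pairs lay between -0.13 and 0.14. With 3 libraries per group the deviations depend on one another, so these values cannot show whether same-numbered libraries were prepared together. With the replicate block the calls stayed at 0 and 0, and the median at -0.08. The counts at an unadjusted p under 0.05 stayed at 1 and 3. Low genes rest on little coverage, above all in fl/fl replicates 1 and 2.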
